A study of Mus musculus with 18 samples.

Results

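MHC class I antigen presentation was followed through mouse colon tumor RNA with 10 genes. They are the heavy chain genes H2-K1 and H2-D1, the light chain gene B2m, the peptide transporter genes Tap1 and Tap2, the tapasin gene Tapbp, the immunoproteasome subunit genes Psmb8, Psmb9 and Psmb10, and the transactivator gene Nlrc5. The genes were chosen by name, and each of the 10 was found as 1 row among the 54354 rows of the deposited table. Strand-specific sequencing of poly(A) RNA covered 18 mouse libraries labelled colon and tumor, with a wild type genotype, in 4 diet groups. The title of the series names ceramides, a revival stemness program and metastasis of colorectal cancer, and serine is the amino acid that opens the ceramide pathway. The extraction protocol names organoids, which are small three-dimensional cultures of epithelial cells, whereas the design text of the series describes sorted cells, and which of these applies is not known from the labels.

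The results come from 5 libraries of the serine-free control diet (SF_CD) and 5 libraries of the serine-free high fat diet (SF_HFD), so that both groups lacked dietary serine and differed in the fat of the diet. Mouse strain, age, tumor model and the number of animals behind each library are not given in the labels. For the other 8 libraries, 3 on a control diet and 5 on a high fat diet with serine, the deposited row labels do not name the genes counted. H2-K1, H2-D1, B2m, Tap1 and Tapbp stood at 0 counts in all 8 of those columns, as did the cytoskeletal gene Actb and the glycolytic gene Gapdh. No value of those libraries is used below. Whether the libraries within a diet are separate animals or repeats of 1 culture is likewise not labelled, so a p-value here measures spread that may be technical.

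MHC class I molecules show fragments of a cell's own proteins to CD8 T cells. The proteasome cuts proteins into peptides, and TAP carries them into the endoplasmic reticulum. There tapasin and its partner chaperones load them onto a heavy chain bound to beta-2 microglobulin, and the complex travels to the surface. Interferon gamma is known to raise most of these genes, partly through NLRC5, which acts at a conserved set of upstream boxes called W/S, X1, X2 and Y. Loss of parts of this pathway is a known route by which colorectal tumors escape T cells.

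Most of the genes lie on chromosome 17 (GRCm38, the assembly also called mm10), where the mouse MHC is. There Tapbp spans 33915899 to 33929292 (+ strand), H2-K1 33996017 to 34000347 (- strand), Psmb9 34181987 to 34187764 (- strand), Tap1 34187553 to 34197225 (+ strand), Psmb8 34197721 to 34201454 (+ strand), Tap2 34203527 to 34216321 (+ strand) and H2-D1 35262730 to 35267499 (+ strand). The annotated spans of Psmb9 and Tap1 overlap on opposite strands, and whether the counting used strand is not stated, so reads of the overlap are uncertain. B2m lies on chromosome 2 at 122147686 to 122153083 (+ strand). Psmb10, at 105935735 to 105938444 (- strand), and Nlrc5, at 94434356 to 94527272 (+ strand), lie on chromosome 8. All 10 are annotated as protein-coding.

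Upstream sequence is shown for the 3 genes that encode the class I dimer. Their promoters carry the boxes through which the pathway is known to be switched on together. A further reason is that their fitted fold changes between the diets did not have the same sign. None of the 3 was called, and whether their fold changes differ was not tested. The sequences are from RefSeq (GRCm38.p6), each written 5' to 3' on the gene's strand, with motif matches in capitals. In H2-K1 the capitals mark a kappa B match (GGGNNTTCC), the X2 core (TGACG) and the Y box read on the opposite strand (ATTGG, the complement of CCAAT). The H2-K1 stretch is chr17:34000359-34000468 (- strand), which ends 26 bases before a RefSeq start site.
H2-K1: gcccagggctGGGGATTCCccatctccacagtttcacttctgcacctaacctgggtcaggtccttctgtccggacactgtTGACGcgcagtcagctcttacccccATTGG
For H2-D1 only short pieces around the same matches are shown, because the window lies in the 5' UTR of a longer annotated transcript. They are the kappa B piece at chr17:35262913-35262942 and the X2 to Y piece at chr17:35262993-35263022, both on the + strand.
H2-D1 kappa B: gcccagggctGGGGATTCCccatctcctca
H2-D1 X2 to Y: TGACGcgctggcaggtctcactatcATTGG
In B2m the capitals mark an interferon-stimulated response element core read on the opposite strand (GAAACTGAA, a match to TTCNNTTTC), the X2 core and the Y box. The stretch is chr2:122147542-122147638 (+ strand).
B2m: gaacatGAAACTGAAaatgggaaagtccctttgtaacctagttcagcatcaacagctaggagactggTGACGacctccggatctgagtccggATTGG
Over the 110 bases printed for H2-K1, 99 bases (90.0%) were the same in H2-D1 without gaps, and kappa B and X2 matches began 70 bases apart in both genes. Over the 30 bases from X2 to Y, H2-K1 shared 23 bases with H2-D1 and 13 with B2m. Capitals mark matches to a single fixed pattern per motif, and other forms of a site were not searched. The lower-case letters agtttcacttct in H2-K1 resemble an interferon response element but do not match the pattern searched. The same holds for gggaaagtccc in B2m and kappa B, read on the opposite strand. The capitals therefore do not show that either gene lacks such a site.

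In these 3 promoters the X2 core and the Y box began 25 bases apart, first base to first base. This spacing was looked at after the matches had been seen. It occurred in 3 of the 8 class I promoters in the RefSeq table, in 1 of 13 promoters of other class I heavy chain genes (H2-M3), and in 31 of 32851 promoters of the table (0.0944%), which belong to 27 genes. Single motifs were far more common. Of all promoters, 8.56% held the interferon response element core, 5.82% kappa B, 8.30% the gamma-activated site (GAS, TTCNNNGAA), 20.8% the X2 core, 37.4% the Y box and 24.9% TATAA, searched on both strands from 250 bases before to 50 bases after the start site. No entry of the promoter table matched Tap2 or Nlrc5.

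Among the other class I promoters, Psmb8 alone held a match to the interferon gamma-activated sequence (GAS). It matches on both strands and is printed in capitals at chr17:34198088-34198116 (+ strand), again as a short piece because a longer transcript's 5' UTR covers it.
Psmb8: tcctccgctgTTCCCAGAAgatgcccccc
The promoter windows of Tap1 (34187306 to 34187605) and Psmb9 (34187281 to 34187580), which are transcribed away from each other, overlap. They hold the same X2 core and the same Y box, at another spacing, so these bases are counted for both genes. Tapbp held 2 Y boxes, and Psmb10 held none of the 6 motifs. A match is a description of the letters and not a measured binding site. Absence of a match covers only the fixed patterns searched, and not other forms of the same site.

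**Figure D1:**
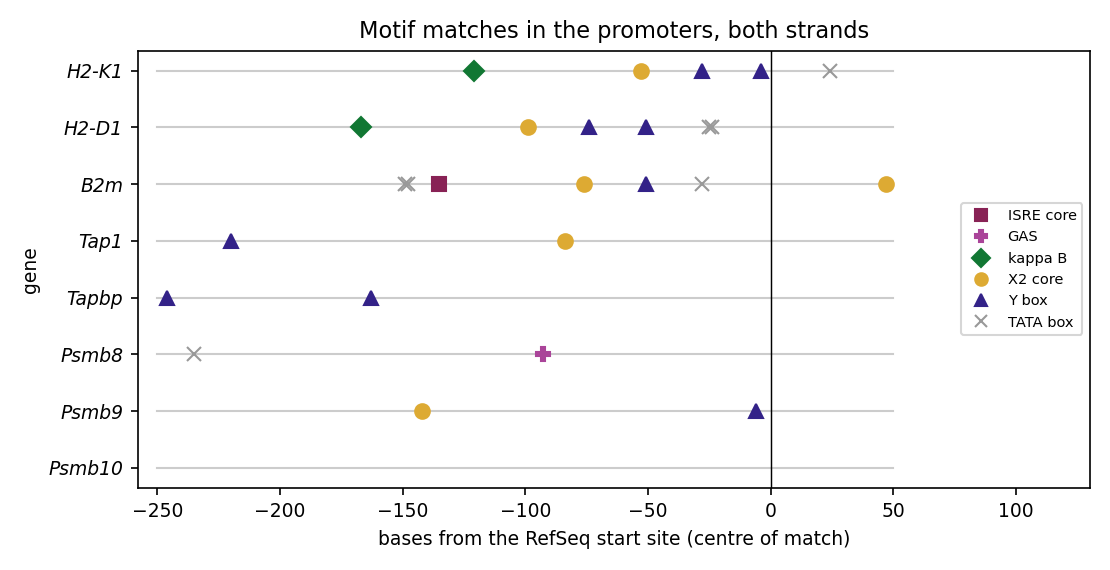
Positions of the 6 motifs in the promoters of the 8 genes with a RefSeq entry, with the distance in bases from the start site on the x axis and 1 gene per row. Each symbol is the centre of a match on either strand, and H2-K1 is drawn from 1 of its 2 entries. The windows of Tap1 and Psmb9 overlap, and their X2 and Y symbols mark the same bases. Kappa B, X2 and Y stand in the same order in H2-K1 and H2-D1. B2m has X2 and Y without a match to the kappa B pattern searched, and Psmb10 has no match.

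The libraries differed in depth and quality. Total counts ranged from 499774 to 12841275, and 3 libraries were under 1000000 counts, namely SF_CD 1, SF_CD 5 and SF_HFD 5. Ribosomal RNA took 21.99% of SF_CD 1 and 14.5% of SF_CD 5, against 2.08% to 7.19% of the others, and Malat1, a nuclear RNA, took 12.1% of SF_CD 1. The 10 class I genes held between 192 counts (SF_CD 1) and 11281 counts (SF_HFD 4) per library. Levels are given in CPM, counts scaled to the library total with TMM normalisation, in which 1 count equalled 2.25 CPM in SF_CD 1 and 0.0755 CPM in SF_HFD 4. The exact binomial 95% intervals of single values cover counting error only.

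Epithelial identity was plain in both groups. The summed level of 12 epithelial markers was 2596 to 6580 CPM in SF_CD and 4951 to 11607 CPM in SF_HFD, and 10 of the 11 tested markers had a positive log2 fold change (median 0.69, none past the threshold). Markers of lymphocytes, cells that carry much class I themselves, summed to at most 6.53 CPM in SF_CD and 4.0 CPM in SF_HFD, with 12 markers in the list. Of these, 6 were at 0 in all 10 libraries (Cd3e, Cd8a, Cd4, Ms4a1, Prf1 and Klrb1c). The other 6 had counts, namely Trac (35 in SF_CD and 97 in SF_HFD), Gzma (80 and 3), the pan-leukocyte gene Ptprc (14 and 31), Cd3d (3 and 1), Cd79a (2 and 0) and Nkg7 (0 and 2). Only Trac was tested, and it was not called (log2 fold change 0.77, edgeR adjusted p = 0.759). Myeloid markers summed to 36.4 to 118.8 CPM in SF_CD and 18.7 to 48.7 CPM in SF_HFD, where Fcer1g passed the test as lower, but not without SF_HFD 1, SF_HFD 4 or the 3 shallow libraries (edgeR adjusted p = 0.0524, 0.0854 and 0.0845). Fibroblast and smooth muscle markers ranged from 16.1 to 107.1 CPM in SF_CD and from 232.2 to 382.7 CPM in SF_HFD, where Acta2, Myl9 and Actg2 passed the test as higher. Without the 3 shallow libraries Myl9 still passed, Acta2 (edgeR adjusted p = 0.0701) and Actg2 (0.159) did not, and Actg2 also missed the threshold without SF_CD 1, SF_HFD 2 or SF_HFD 5. Endothelial markers summed to 4.19 to 33.8 CPM in SF_CD and 1.26 to 4.30 CPM in SF_HFD. The 33.8 CPM of SF_CD 1 rested on 15 counts and the 15.6 CPM of SF_CD 5 on 8. SF_CD 2, 3 and 4 were at 4.19, 5.04 and 8.58 CPM. Pecam1, the only endothelial marker tested, was not called (log2 fold change -1.76, and -0.09 without the 3 shallow libraries). The myeloid maximum of 118.8 CPM was SF_CD 5, with 61 counts, and the deeper SF_CD 3 was at 73.7 CPM. The part of these cell type markers in the class I results was not tested. In bulk RNA, more cells of a type and more RNA per cell cannot be told apart.

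SF_HFD was compared with SF_CD to ask how the class I genes stood under the high fat diet when serine was absent. H2-K1 and H2-D1, the classical heavy chain genes, had fitted fold changes of 1.54 and 1.58 (SF_HFD over SF_CD), B2m had a slightly lower mean in SF_HFD, and no class I gene passed the threshold. Of the 10 genes, 9 had enough counts to be tested. By edgeR's quasi-likelihood test with Benjamini-Hochberg adjustment over 11780 genes, 0 of the 9 were called at 0.05, where 0.323% of all genes tested were called (0.153% as higher and 0.17% as lower). Neither DESeq2 nor limma-voom called any of the 9. At an unadjusted p under 0.05 (edgeR), 2 of the 9 stood higher in SF_HFD (H2-K1 and H2-D1) and 0 lower. Of all genes tested, 4.92% stood higher at that level and 11.6% differed in either direction. Log2 fold changes (SF_HFD minus SF_CD) were positive for 7 of the 9, against 51.4% of all genes tested, and their median was 0.56 against 0.02 over all genes tested. Without the 3 shallow libraries 6 were positive and the median was 0.40. The median depends on single libraries: it was 0.18 without SF_HFD 3 (5 of 9 positive), 0.29 without SF_CD 4 (6 of 9) and 0.37 without SF_CD 5 (7 of 9), in a range of 0.18 to 0.66 over all 18 alternatives.

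H2-K1 encodes the K heavy chain, the polymorphic chain that holds the peptide. It was at 128.5, 117.6, 113.4, 104.9 and 89.6 CPM in SF_CD libraries 1 to 5. In SF_HFD libraries 1 to 5 it was at 150.3, 169.1, 151.3, 217.4 and 164.2 CPM. The lowest SF_HFD library lay above the highest SF_CD library, so the groups did not overlap, as was the case with SF_HFD higher for 2.23% of all genes tested. The means were 110.8 ± 14.6 CPM in SF_CD and 170.5 ± 27.5 CPM in SF_HFD (SD, n = 5 each). The log2 fold change was 0.62 ± 0.29 (SE, 95% interval 0.01 to 1.23, edgeR adjusted p = 0.415), a fold change of 1.54 with an interval of 1.01 to 2.35. In SF_CD 1, the shallowest library, 57 counts of H2-K1 gave an interval of 97.3 to 166.5 CPM, which reaches into the SF_HFD range. Without the 3 libraries under 1000000 counts the log2 fold change was the same to 2 decimals, 0.62 (edgeR adjusted p = 0.225).

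H2-D1 encodes the D heavy chain, which presents a different peptide repertoire from K. Its SF_CD values were 87.9, 129.9, 146.7, 123.9 and 75.9 CPM, and its SF_HFD values 184.4, 136.9, 163.3, 228.2 and 188.2 CPM. SF_HFD 1, 3, 4 and 5 lay above every SF_CD library, and SF_HFD 2 lay below SF_CD 3, so the groups overlapped. The means were 112.9 ± 29.8 and 180.2 ± 33.7 CPM, with a log2 fold change of 0.66 ± 0.31 (SE, interval 0.01 to 1.32, edgeR adjusted p = 0.423). Its lowest values were in the shallow libraries SF_CD 1 and SF_CD 5, each with 39 counts. Without the 3 shallow libraries the log2 fold change was 0.42 (edgeR adjusted p = 0.383).

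Counts of the pair of heavy chain genes were nearly equal. The ratio of H2-D1 to H2-K1 counts was 1.02 ± 0.25 in SF_CD and 1.06 ± 0.16 in SF_HFD (SD, n = 5 each), with overlapping ranges of 0.684 to 1.29 and 0.809 to 1.23. These genes share sequence. Of the 31-base words in the annotated H2-K1 transcripts, 22.8% also occur in other genes and 11.1% in H2-D1. Of the H2-D1 words, 26.7% occur elsewhere and 13.8% in H2-K1. Counts from such stretches were divided between the genes by the authors' quantification, and the labels do not give the mouse strain and hence its H2 haplotype. The split of counts between the heavy chain genes is therefore uncertain, and its part in the result was not tested.

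B2m encodes the light chain that every class I heavy chain needs to fold and to reach the surface. None of its 31-base words occurs in another annotated gene. It was at 166.8, 234.8, 181.3, 297.6 and 223.9 CPM in SF_CD and at 121.0, 180.2, 277.0, 296.1 and 116.2 CPM in SF_HFD. Both groups held high and low libraries, and the 2 lowest of all 10 were SF_HFD 5 and SF_HFD 1. The means were 220.9 ± 51.4 and 198.1 ± 84.9 CPM, and the log2 fold change was -0.16 ± 0.35 (SE, interval -0.89 to 0.58, edgeR adjusted p = 0.908). Whether its fold change differs from those of the heavy chain genes was not tested.

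H2-K1 and H2-D1 together were set against B2m in each library, a sum formed after their values had been seen and given with no test. The summed level was 216.4, 247.5, 260.1, 228.8 and 165.5 CPM in SF_CD and 334.7, 306.0, 314.6, 445.6 and 352.4 CPM in SF_HFD, with no overlap. The ratio of the summed heavy chain counts to B2m counts was 1.297, 1.05, 1.43, 0.769 and 0.739 in SF_CD. In SF_HFD it was 2.77, 1.70, 1.14, 1.505 and 3.03. The means were 1.06 ± 0.31 and 2.03 ± 0.83 (SD, n = 5 each). The ratio in SF_HFD 3 lay within the SF_CD range, and the 2 highest ratios were in SF_HFD 1 and SF_HFD 5, the libraries with the lowest B2m.

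**Figure D2:**
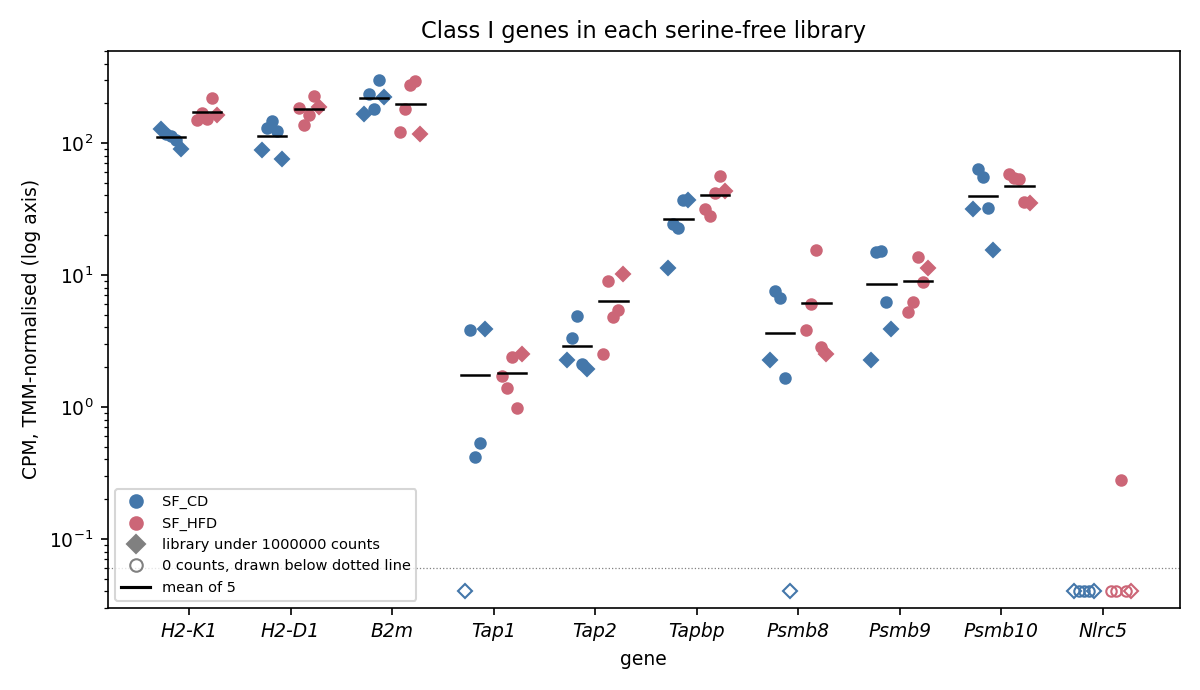
TMM-normalised CPM (y axis, log scale) of the 10 genes (x axis) in 5 SF_CD and 5 SF_HFD libraries, 1 point per library, with bars at the mean of 5 (no bar for Nlrc5). Diamonds are libraries under 1000000 counts and open symbols are 0 counts, drawn below the dotted line. The SF_HFD points of H2-K1 all lie above its SF_CD points, those of B2m lie within its SF_CD range in 3 libraries and below it in 2, and Nlrc5 has 1 library above 0.

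Tap1 and Tap2 encode the 2 chains of the transporter, and both were scarce. Tap1 was at 0, 3.86, 0.420, 0.531 and 3.89 CPM in SF_CD and at 1.72, 1.38, 2.40, 0.981 and 2.53 CPM in SF_HFD. Its 3.89 CPM in SF_CD 5 and 2.53 CPM in SF_HFD 5 rested on 2 counts each, and 0 counts in SF_CD 1 allow up to 6.76 CPM (3 counts). No order of the groups can be read from these values. The log2 fold change was 0.03 ± 0.74 (SE, interval -1.54 to 1.61, edgeR adjusted p = 0.991).

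Tap2 was at 2.25, 3.31, 4.90, 2.12 and 1.95 CPM in SF_CD and at 2.53, 8.99, 4.81, 5.43 and 10.1 CPM in SF_HFD. The means were 2.91 ± 1.24 and 6.37 ± 3.12 CPM (SD, n = 5 each), and SF_HFD 2, 4 and 5 lay above every SF_CD library. The SF_HFD 5 value rested on 8 counts (interval 4.36 to 19.9 CPM). Those of SF_CD 1 and SF_CD 5 rested on 1 count each, with upper limits of 12.6 and 10.8 CPM, so counting error reaches across the groups. The log2 fold change of Tap2 was the highest of the 9 genes at 0.94 ± 0.54 (SE, interval -0.19 to 2.08, edgeR adjusted p = 0.519). The value was 0.65 without the 3 shallow libraries (edgeR adjusted p = 0.538).

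Tapbp encodes tapasin, which holds an empty class I molecule at the transporter. It was at 11.3, 24.2, 22.6, 37.2 and 37.0 CPM in SF_CD and at 31.6, 28.1, 41.7, 55.9 and 42.9 CPM in SF_HFD. SF_HFD 3, 4 and 5 lay above every SF_CD library, and the lowest value, in SF_CD 1, rested on 5 counts. The means were 26.5 ± 10.9 and 40.1 ± 10.9 CPM, and the log2 fold change was 0.58 ± 0.38 (SE, interval -0.21 to 1.37, edgeR adjusted p = 0.575).

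The immunoproteasome subunits replace the constitutive catalytic subunits Psmb5, Psmb6 and Psmb7 when interferon gamma is present and change which peptides are cut. Psmb10, which encodes the subunit MECL-1, was the most abundant of the 3. Its levels were 31.6, 63.9, 55.3, 32.3 and 15.6 CPM in SF_CD and 58.2, 53.9, 53.3, 35.7 and 35.4 CPM in SF_HFD. The SF_HFD libraries all lay between the lowest and highest SF_CD libraries. Its log2 fold change was 0.22 ± 0.38 (SE, interval -0.59 to 1.02, edgeR adjusted p = 0.878), and -0.01 without the 3 shallow libraries.

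Psmb8, which encodes LMP7, was at 2.25, 7.60, 6.73, 1.67 and 0 CPM in SF_CD and at 3.8, 5.99, 15.4, 2.87 and 2.53 CPM in SF_HFD. SF_HFD 3 stood apart from the other SF_HFD libraries, which lay within the SF_CD range. The log2 fold change of 0.56 ± 0.67 (SE, interval -0.85 to 1.97, edgeR adjusted p = 0.802) was -0.13 without SF_HFD 3, so its direction rests on that library.

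Psmb9, which encodes LMP2, was at 2.25, 14.9, 15.1, 6.22 and 3.89 CPM in SF_CD. In SF_HFD it was at 5.25, 6.22, 13.7, 8.83 and 11.4 CPM. The highest and the lowest of the 10 values were both in SF_CD. The log2 fold change was -0.08 ± 0.50 (SE, interval -1.14 to 0.97, edgeR adjusted p = 0.971).

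Set against the subunit it replaces, within a library and so free of scaling between libraries, each immunoproteasome subunit was the minor form. Over all 10 libraries and per kilobase of the longest coding transcript, Psmb8 stood at 1.19% of Psmb5 and Psmb9 at 0.854% of Psmb6, while Psmb10 stood at 17.9% of Psmb7. With coding length in place of transcript length, a choice added after the data were seen, the shares were 2.06%, 1.57% and 20.5%. Psmb10 kept the highest share under both lengths.

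By group, the pooled share of Psmb8 was 0.933% in SF_CD and 1.38% in SF_HFD, that of Psmb9 0.890% and 0.823%, and that of Psmb10 16.1% and 19.4%. For Psmb8, SF_HFD 3 held 167 of the 275 SF_HFD counts, and without it the SF_HFD share was 0.789%, below that of SF_CD. Without SF_CD 4 the SF_CD shares were 1.43% for Psmb8, 1.18% for Psmb9 and 19.7% for Psmb10, so that each stood above the SF_HFD share. These shares without 1 library were computed after the data were seen. The differences in mean log2 ratio (SF_HFD minus SF_CD, counts + 0.5) were 0.55, -0.15 and 0.36. That of Psmb8 was 0.04 without SF_CD 5, where Psmb8 had 0 counts, 0.22 without SF_CD 4, 0.26 without SF_HFD 3 and 0.10 with 2 in place of 0.5 added to the counts. That of Psmb10 was 0.24 without SF_CD 4 and 0.23 without SF_CD 5, and that of Psmb9 ranged from -0.35 to 0.05 without 1 library. The exact two-sided permutation test over 5 against 5 libraries gave p = 0.532, 0.595 and 0.214, each 0.595 after Benjamini-Hochberg adjustment over the 3 ratios, in a design that can reach 0.00794. The groups overlapped for all 3 ratios. For Psmb10 to Psmb7, shares by library were 20.3%, 21.8%, 17.6%, 11.2% and 10.6% in SF_CD and 21.9%, 26.6%, 18.0%, 16.3% and 19.98% in SF_HFD. The 2 lowest were SF_CD 4 and SF_CD 5. Psmb5 shares 59.8% of its 31-base words with the pseudogene Gm3375, which held 15 counts against 19276 for Psmb5.

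**Figure D3:**
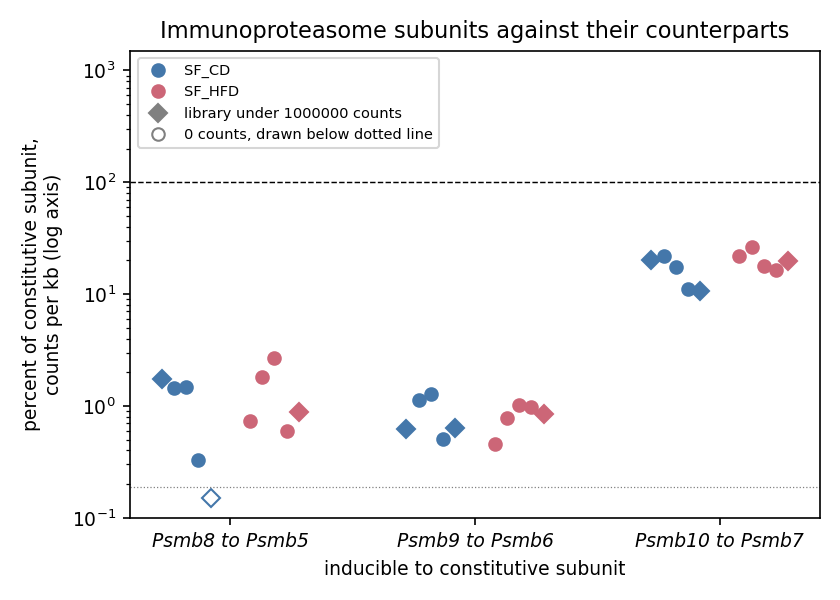
Each immunoproteasome subunit as a percent of the constitutive subunit that it replaces, in counts per kilobase (y axis, log scale), for 5 SF_CD and 5 SF_HFD libraries, 1 point per library. Diamonds are libraries under 1000000 counts, the open symbol is 0 counts, and the dashed line is equality at 100%. Psmb10 lies between 10.6% and 26.6% of Psmb7, and the other subunits lie under 3% of their counterparts.

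Nlrc5, the transactivator of class I genes, had 3 counts in all among 70993995 counts of the 10 libraries, all in SF_HFD 3 (0.277 CPM). The 0 counts in SF_CD allow up to 0.0989 CPM (3 counts over the group's 31522150). It was not tested and has no fold change. Nlrc5 was thus at the edge of detection at this depth while H2-K1, H2-D1 and B2m, genes it is known to activate, were each at 75.9 CPM or more in every library.

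Levels were compared between the genes per kilobase of the longest coding transcript, as the mean over 10 libraries. B2m was highest at 243.6 CPM per kb, followed by H2-K1 at 86.9, H2-D1 at 69.7, Psmb10 at 33.2, Tapbp at 11.5, Psmb9 at 6.49, Psmb8 at 3.003, Tap2 at 1.35, Tap1 at 0.600 and Nlrc5 at 0.00366 CPM per kb. The order of neighbours from B2m down to Psmb10 held in 10 of 10 libraries, as did that of Psmb9 over Psmb8. That of H2-K1 over H2-D1 rests on the transcript lengths of 1.619 and 2.102 kb. Their coding lengths are nearly equal, at 1107 and 1086 bases. Per coding base H2-D1 stands above H2-K1 wherever its counts are higher, as in SF_CD 3 (ratio 1.29) and SF_HFD 1 (1.23). The order of these 2 genes is therefore not settled. Psmb10 stood over Tapbp in 9 libraries, Tapbp over Psmb9, Psmb8 over Tap2 and Tap2 over Tap1 in 8 each, and Tap1 over Nlrc5 in 9, with both at 0 in SF_CD 1. The gap between the group means was smaller than the larger of the pair's SDs in both groups for Psmb9 and Psmb8 and for Psmb8 and Tap2. In SF_CD alone this also held for Tapbp and Psmb9, for Tap2 and Tap1, and for Tap1 and Nlrc5. The transporter genes were the least abundant apart from Nlrc5.

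The 9 tested genes were also compared across the 10 libraries by the correlation of log2 CPM. Of 36 pairs, 28 had a positive Pearson's r. The share of positive r over all pairs of genes is not given here, so this count has no background to be set against. Only 1 pair had an adjusted p under 0.05 by r and 0 pairs by Spearman's rho (permutation tests with 100000 resamples, Benjamini-Hochberg over 36 pairs). That pair was Psmb8 and Psmb10, subunits encoded on different chromosomes, with r = 0.93 (permutation p = 0.00052, adjusted 0.0187) and rho = 0.83 (permutation p = 0.00466, adjusted 0.158). The r was 0.92 without the 2 libraries farthest from the median of Psmb8, 0.92 after centring each group, and 0.74 over the 7 deeper libraries, so it was lower where the shallow libraries were left out.

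H2-K1 and H2-D1 had r = 0.80 (permutation p = 0.00636, adjusted 0.114) and rho = 0.76 (permutation p = 0.0154, adjusted 0.158). Without the 2 libraries farthest from the median of H2-K1 the r was 0.50, after centring each group 0.45, and over the 7 deeper libraries 0.81, so the relation rests partly on the distance between the groups and on those 2 libraries. B2m had r = -0.13 with H2-K1 (permutation p = 0.727, adjusted 0.902) and r = -0.10 with H2-D1 (permutation p = 0.782, adjusted 0.912). Spearman's coefficients were -0.20 (permutation p = 0.584) and -0.14 (permutation p = 0.708). Tap1 and Tap2 had r = 0.19 (permutation p = 0.608, adjusted 0.891) and rho = -0.02. The libraries share depth and quality differences, so these correlations describe these libraries.

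**Figure D4:**
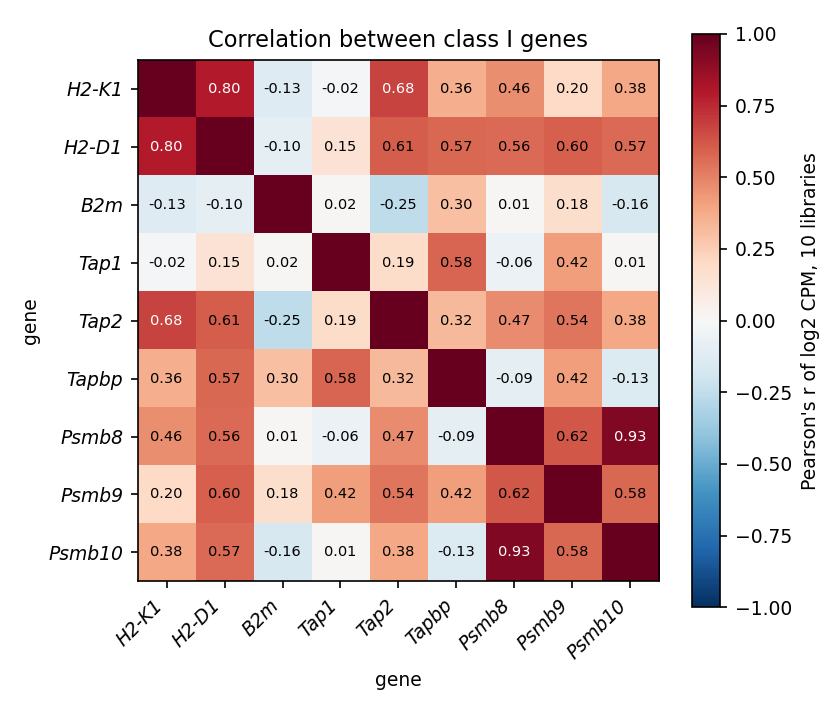
Pearson's r of log2 CPM between each pair of the 9 tested class I genes over 10 libraries, with genes on both axes, red for positive and blue for negative r. The highest values are Psmb8 with Psmb10 (0.93) and H2-K1 with H2-D1 (0.80), and B2m is near 0 or negative with most of the others.

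The 8 genes outside the pathway named here followed the mean of the class I genes most closely, by Pearson's r with the mean of their standardised log2 CPM over 10 libraries among 7309 genes whose log2 CPM averaged 3 or more. They were Pmm1 (r = 0.95), which makes mannose 1-phosphate, Fibp (0.95), Tspan4 (0.95), the heme transporter gene Slc48a1 (0.95), Lrwd1 (0.94), the ciliary transport gene Ift81 (0.92), Lbh (0.92) and 5031439G07Rik (0.92). Over the 7 deeper libraries their r ranged from 0.63 (Lbh) to 0.94 (Slc48a1). None was called between the diets.

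Other class I heavy chain genes were measured beside them. Of 20 genes written for this list, 19 were in the table and 8 were tested. None passed the test, 8 of 8 had a positive log2 fold change, and the median was 0.50. H2-T23, which encodes the Qa-1 molecule that NK cell receptors read, was the most abundant at 319.6 ± 65.2 (SF_CD) and 335.5 ± 77.8 CPM (SF_HFD) (log2 fold change 0.07 ± 0.30, edgeR adjusted p = 0.958). Its values by library were 223.2, 333.1, 405.1, 329.2 and 307.6 CPM in SF_CD and 419.1, 335.5, 275.0, 242.6 and 405.5 CPM in SF_HFD, so the groups overlapped widely. H2-Q2 was at 18.1 ± 14.5 and 25.5 ± 14.1 CPM. H2-Q4, with 0 to 0.140 CPM in SF_CD and 0.0905 to 1.26 CPM in SF_HFD, was not tested. In the deeper libraries alone 10 were tested, 6 were positive and the median was 0.15. The genes of this family share sequence with each other, and 24.5% of the 31-base words of H2-T23 occur in other genes.

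Genes of peptide loading and trimming showed a median log2 fold change of -0.11, with 0 of 11 called and 3 positive. Calr, the chaperone that holds the glycan of a loading class I molecule, was at 316.5 ± 62.5 (SF_CD) and 232.3 ± 48.2 CPM (SF_HFD) (log2 fold change -0.44 ± 0.29, edgeR adjusted p = 0.587). Pdia3, the disulfide isomerase of the loading complex, was at 358.9 ± 66.3 and 259.8 ± 37.0 CPM (-0.46 ± 0.28, edgeR adjusted p = 0.540). These 2 partners of tapasin thus had lower means in SF_HFD where Tapbp had a higher one, none past the threshold. Canx, an early folding chaperone of heavy chains, was at 229.8 ± 120.7 and 211.6 ± 63.6 CPM, and Erap1, which trims peptides in the endoplasmic reticulum, at 11.6 ± 5.22 and 14.1 ± 6.74 CPM. Canx and Erap1 changed sign without the 3 shallow libraries, while Calr and Pdia3 kept theirs in every alternative run (Calr at -0.17 without those libraries). Of the most abundant members, Hspa5 (BiP) had a log2 fold change of -0.19 and the translocon gene Sec61b 0.52 (0.11 without those libraries).

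Genes that supply the peptides were examined next. Of the 3 constitutive subunits none was called (median 0.05), with Psmb6 at 552.8 ± 249.9 and 651.4 ± 146.5 CPM, Psmb5 at 231.9 ± 90.5 and 241.0 ± 68.7 CPM and Psmb7 at 212.3 ± 72.1 and 205.2 ± 42.6 CPM. Of 8 genes of proteasome activators and assembly, 0 were called, 6 were positive and the median was 0.30. The interferon-inducible activator genes Psme1 and Psme2, whose products form the PA28 ring together, stood at log2 fold changes of -0.39 ± 0.31 and 0.40 ± 0.40, with edgeR adjusted p of 0.676 and 0.755. Pomp, the proteasome assembly factor, was at 685.2 ± 300.4 and 789.3 ± 197.1 CPM. Of 6 cytosolic peptidases tested, 0 were called (median -0.08), with Npepps at 119.4 ± 111.5 and 100.5 ± 31.5 CPM and Lap3 at 103.0 ± 50.1 and 91.0 ± 20.5 CPM. Without the 3 shallow libraries the medians of these 3 lists were -0.24, -0.15 and 0.08, so that each changed sign.

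Regulators of class I genes came next. Of 24 tested genes of interferon signalling and class I transcription factors, 0 were called, 8 were positive and the median log2 fold change was -0.29. The median was 0.03 without the 3 shallow libraries (13 of 26 positive) and 0.09 with limma-voom. Irf1, which binds interferon response elements, was at 27.0 ± 11.5 (SF_CD) and 21.7 ± 10.96 CPM (SF_HFD) (log2 fold change -0.33 ± 0.43, edgeR adjusted p = 0.821). Rfx5, a subunit of the X1-binding complex, was at 2.28 ± 2.38 and 1.96 ± 1.21 CPM. Nfyb, a subunit of the Y-box factor, was at 68.6 ± 17.3 and 56.4 ± 14.6 CPM, and Jak1 at 53.1 ± 40.9 and 45.1 ± 12.7 CPM.

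Groups did not overlap for 3 regulators, named after their values were seen, and none of them was called. Rela, the NF-kappa B subunit that binds kappa B sites, was at 16.8 ± 5.61 (SF_CD) and 33.7 ± 11.3 CPM (SF_HFD) (log2 fold change 0.95 ± 0.38, edgeR adjusted p = 0.341). Irf2 was lower in SF_HFD (-1.27 ± 0.46, edgeR adjusted p = 0.302), and so was Creb1, whose product can bind the X2 box (-0.53 ± 0.32, edgeR adjusted p = 0.540). Of all genes tested, 3.65% had no overlap between groups. The 3 kept their sign in every alternative run, but Irf2 stood at -0.61 without SF_CD 1 and -0.41 without the 3 shallow libraries, where Creb1 stood at -0.32 and Rela at 0.77.

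Interferon-stimulated genes outside the pathway were measured as a further readout. Of 40 written, 26 were tested and 1 was called higher, where 0.153% of all genes tested were called higher. Of the 26, 9 were positive and the median log2 fold change was -0.32. At an unadjusted p under 0.05 (edgeR), 1 stood higher and 5 lower, against 11.6% of all genes tested in either direction. The median was -0.0026 without the 3 shallow libraries (13 of 27 positive). The gene called was Ido1, which degrades tryptophan, at 0, 2.31, 0.140, 0 and 0 CPM in SF_CD and 13.8, 4.38, 23.03, 269.5 and 94.7 CPM in SF_HFD (log2 fold change 6.74 ± 1.34, edgeR adjusted p = 0.0477). Its call held in 5 of 18 alternatives. Among removals of 1 library it was lost without SF_CD 1, 3, 4 or 5 or SF_HFD 3, 4 or 5 (edgeR adjusted p up to 0.160). Ido1 was also not called with upper quartile scaling, no filter, the stricter filter, limma-voom, the replicate block or without the 3 shallow libraries. Its level was highest in SF_HFD 4, the library that also had the highest H2-K1, H2-D1, B2m and Tapbp of its group, while Psmb8 and Psmb9 were highest in SF_HFD 3. Among the interferon-stimulated genes, DESeq2 and limma-voom each called 1 as lower in SF_HFD. None of the 3 tested MHC class II genes was called, with H2-Ab1 at 3.71 ± 4.38 and 3.01 ± 1.77 CPM and H2-DMb1 at 2.24 ± 1.39 and 4.48 ± 3.59 CPM.

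Ligands that T cells and NK cells read beside class I were examined last. Of 7 tested, 0 were called. Cd274, which encodes PD-L1, was at 0, 0.551, 1.12, 1.37 and 1.95 CPM in SF_CD and 0.362, 0.922, 2.31, 10.4 and 6.32 CPM in SF_HFD, with the 2 highest values in SF_HFD 4 and 5 (log2 fold change 1.93 ± 0.87, edgeR adjusted p = 0.399, and 0.91 without SF_HFD 4). The SF_HFD 5 value of Cd274 rested on 5 counts (interval 2.05 to 14.7 CPM), and that of SF_CD 5 on 1 count (upper limit 10.8 CPM). Cd47, a signal against phagocytosis, was at 128.6 ± 132.7 and 39.1 ± 15.6 CPM (-1.67 ± 0.60, edgeR adjusted p = 0.303, but -0.22 without the 3 shallow libraries), and Pvr, a ligand of the NK receptor DNAM-1, at 63.2 ± 46.8 and 34.1 ± 9.08 CPM.

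**Figure D5:**
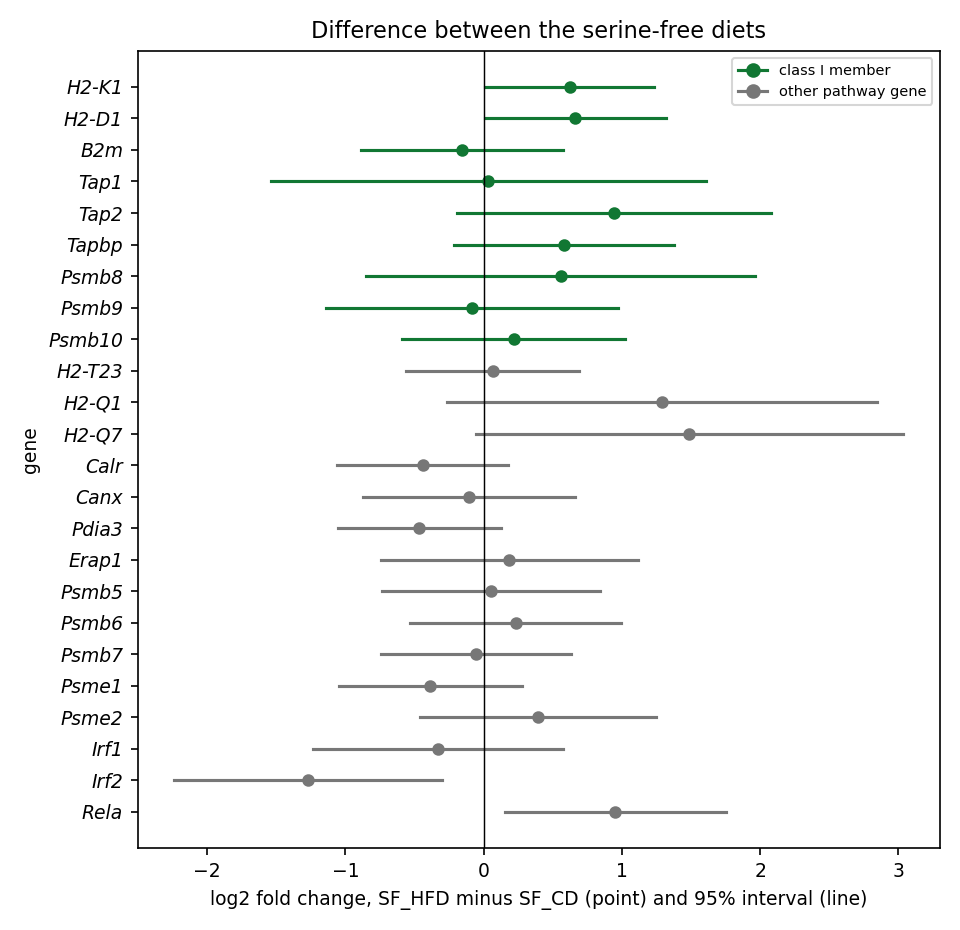
Log2 fold change (x axis, SF_HFD minus SF_CD, point) with its 95% interval (line) for the 9 tested class I genes in green and 15 other genes of the pathway in grey, from the edgeR fit over all genes. The intervals of H2-K1 and H2-D1 lie just above 0 (both from 0.01), that of B2m spans -0.89 to 0.58, and none of the genes drawn passed the adjusted threshold.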

How the data were processed

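Libraries were made from poly(A)-selected RNA with strand kept, per the labels' protocols. In 1 table the authors deposited estimated counts per gene as whole numbers. Per the submitters' processing notes, Salmon 1.3.0 and build mm10 were used. Neither the annotation release nor the summing to genes is stated. Reads that fit several transcripts are split by an estimate, which touches the H2 genes most. Of the 54354 rows, 1243 carry no gene symbol and named no gene in these results. All columns were mapped (0 left out).

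Columns were matched to samples by library name. The 5 SF_CD and 5 SF_HFD libraries were fitted together with edgeR 4.0.16 (robust quasi-likelihood test, TMM, filterByExpr, Benjamini-Hochberg over 11780 genes, threshold 0.05, R 4.3.3), without the replicate number as a block. The script was tested on simulated data with changes larger than those of the class I genes, so that test does not cover differences of their size. Each standard error is the absolute log2 fold change over the root of F. Correlations used log2 CPM with a prior count of 2. Transcript lengths, coordinates and shared words came from GENCODE M21, which holds 94.8% of the row identifiers, and promoters from RefSeq (GRCm38.p6).

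The members and gene lists were chosen with earlier results of these data known. Genes were named as all members, plus per list the called genes or the 2 most abundant, plus 16 chosen genes, of which 1 is not reported here. As alternatives, RLE and upper quartile scaling were run, no filter and a stricter one (5 CPM in 5 libraries), DESeq2 1.42.0, limma-voom (limma 3.58.1), a replicate block, leaving out each library, and leaving out the 3 under 1000000 counts. Added after the data were seen were coding lengths, pseudogene copies and pooled subunit shares without 1 library.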

Additional observations from a re-analysis of the deposited data

Results flagged for a closer look

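Of 24 sets of 5 libraries examined, 2 held a library far from the other 4 by Dixon's criterion at the 95% level, and chance alone gives about 1 in 20. H2-K1 in SF_HFD 4 was at 217.4 CPM, and its gap to the next library took 0.720 of the range of the group. Psmb8 in SF_HFD 3 was at 15.4 CPM, with a gap of 0.732 of the range. Without SF_HFD 3 the log2 fold change of Psmb8 was -0.13 in place of 0.56.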

How the results depend on the processing

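None of the 9 tested class I genes was called under any alternative run, nor any other named gene that was not called in the reported fit. H2-K1 kept a positive log2 fold change (0.51 to 0.68, adjusted p 0.136 to 0.836), as did H2-D1 (0.42 to 0.78, adjusted p 0.218 to 0.820), Tap2 (0.50 to 1.25) and Tapbp (0.42 to 0.74). The following changed sign, and the cause was not tested. With limma-voom these were B2m (0.022), Psmb10 (-0.079), H2-T23 (-0.22), Canx (0.17), Erap1 (-0.11), Npepps (0.56), Rfx5 (0.10), Jak1 (0.46) and Pvr (0.29). Tap1 did so with RLE (-0.011) and DESeq2 (-0.015). With the replicate block these were Psmb9 (0.16), Npepps (0.15), Rfx5 (0.23), Jak1 (0.029) and H2-Ab1 (0.035). Without the 3 shallow libraries they were Psmb10 (-0.0097), H2-T23 (-0.16), H2-Q2 (-0.032), Canx (0.43), Erap1 (-0.16), Psmb5 (-0.062), Psmb6 (-0.24), Psme2 (-0.081), Pomp (-0.22), Npepps (0.87), Jak1 (0.64) and Pvr (0.048). Leaving out 1 library at a time gave -0.33 to 1.21 for Tap1, -0.13 to 0.96 for Psmb8, -0.29 to 0.20 for Psmb9, -0.036 to 0.17 for H2-T23, -0.31 to 0.26 for Canx, -0.070 to 0.41 for Erap1, -0.17 to 0.17 for Psmb5, -0.19 to 0.066 for Psmb7, -0.45 to 0.54 for Npepps, -0.40 to 0.045 for Lap3, -0.68 to 0.73 for Rfx5, -0.36 to 0.40 for Jak1, -1.02 to 0.20 for H2-Ab1 and -0.35 to 0.048 for Psmb9 to Psmb6 (log2 ratio). The 38 genes called became 78 with no filter, 21 with the stricter filter, 298 with DESeq2 (38 shared), 173 with limma-voom (28 shared), and 16 to 88 without 1 library: 88 without SF_CD 2, 24 without SF_CD 4, 19 without SF_HFD 2, 16 without SF_HFD 4 and 23 without SF_HFD 5. With the replicate number as a block 22 were called (20 shared). Same-numbered deviations correlated at -0.19, -0.36, 0.23, -0.051 and -0.13, and only number 3 matched its own number best. Depth and quality also differ between the libraries, so these values cannot decide whether the numbers stand for pairs or a shared batch. No subunit ratio passed the threshold in any setting. Over the alternatives the median log2 fold change ranged from 0.15 to 0.72 for other heavy chains, -0.24 to -0.021 for loading and trimming, -0.34 to 0.090 for interferon signalling and -0.53 to 0.017 for interferon-stimulated genes. Depth limits Tap1, Tap2, Psmb8 and Nlrc5 most: 3 counts equal 6.76 CPM in SF_CD 1 and 0.226 CPM in SF_HFD 4.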
